A study of Mus musculus with 8 samples.

Results

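The antiviral interferon-stimulated genes are a set of 42 genes, chosen by name, whose products sense, bind, degrade or trap viral nucleic acids and proteins, or switch that response on and off. Of the 42 symbols, 41 matched a row of the count table of 15917 genes, and 1, Tap15, matched no gene symbol. All 41 passed the filter on low counts and were tested. They were measured by stranded mRNA sequencing in eosinophils, granular leukocytes of type 2 immunity and parasite defence. The cells came from the blood of C57BL/6 mice, were kept in culture for 18 h, and filled 8 libraries in 4 groups of 2. In one experiment, group E1 received 15 ng/mL of IFN-γ and 15 ng/mL of TNF-α, and group CN received no cytokine. In a second experiment, group E2 received IL-5, GM-CSF and IL-4 at 10 ng/mL each with IL-33 at 30 ng/mL, and group E0 received IL-5 alone at 10 ng/mL. All 4 groups came from NJ.1638 mice, which overexpress IL-5 from a transgene and therefore carry many blood eosinophils, although the genotype field of the labels reads WT. The cells were enriched with magnetic beads that removed CD90-bearing and B220-bearing cells, to a purity above 97%. The labels name no separate animals or cultures for the 2 replicates of a group, but sex-linked transcripts differed between them in every group, so p-values measure a spread that holds a difference of sex.

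Interferons signal through receptors whose paired chains each hold a Janus kinase. Type I and type III interferons activate the complex ISGF3, of which STAT2 and IRF9 are parts and which binds the interferon-stimulated response element (ISRE). IFN-γ, the type II interferon, acts mainly through the gamma-activated site (GAS), and it also raises IRF1, which binds ISRE-like sequences. The antiviral genes are best known as targets of type I interferon, and many also respond to IFN-γ.

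Promoter sequence was taken from RefSeq on GRCm38.p6, for windows of 300 bases that begin 250 bases before a gene's start. These were found for 33 of the 41 genes, in 42 windows. The ISRE was searched on both strands as GAAA, any 2 bases (NN) and GAAA, and the GAS, whose pattern reads the same on both strands, as TTCNNNGAA. The 2 patterns can overlap each other. An ISRE match lay in 19 of the 42 windows (45.2%), belonging to 18 genes, against 3.44% of all 32851 windows. A GAS match lay in 9 windows (21.4%), against 8.3% of all windows. Both lay in 4 windows (9.52%), those of Oas1a, Eif2ak2, Bst2 and Ifitm3, against 0.454% of all windows. The following stretches show how the matches were spaced in 6 genes that were higher in E1 and in Ifitm2, which was not called. Each runs 5′ to 3′ on the strand of its gene, with the letters of ISRE and GAS matches in capitals. In Isg15 3 ISRE matches overlapped one another, Ifit1 and Ifit3 held a pair of separate matches, and in Bst2 a GAS match ran into 2 ISRE matches.
Isg15: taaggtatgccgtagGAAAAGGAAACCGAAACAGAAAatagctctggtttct
Ifit1: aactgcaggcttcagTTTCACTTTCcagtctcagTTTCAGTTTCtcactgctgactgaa
Ifit3: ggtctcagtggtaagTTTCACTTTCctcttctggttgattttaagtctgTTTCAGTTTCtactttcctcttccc
Oas1a: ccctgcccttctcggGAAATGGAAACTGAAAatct
Rsad2: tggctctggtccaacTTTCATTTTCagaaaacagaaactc
Bst2: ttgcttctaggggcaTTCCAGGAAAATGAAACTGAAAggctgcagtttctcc
Ifitm2: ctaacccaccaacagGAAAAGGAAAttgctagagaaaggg
The Isg15 stretch lies at chr4:156200860-156200911 on the minus strand, Ifit1 at chr19:34640770-34640828 and Ifit3 at chr19:34583358-34583431 on the plus strand. Oas1a lies at chr5:120907526-120907560, Rsad2 at chr12:26456548-26456587, Bst2 at chr8:71537572-71537623 and Ifitm2 at chr7:140955983-140956022, all on the minus strand. A match describes the letters only. The windows of Ifitm1, Trim25 and Pml held neither pattern, and so did those of Oasl1, Oasl2, Cmpk2, Herc6, Dtx3l, Sp100 and Xaf1, which all were higher in E1.

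Library totals ran from 60809057 to 95065752 counts, so that 3 counts in 1 library, the limit that a count of 0 allows, equal 0.0316 to 0.0493 CPM (counts scaled by library size). Replicates ranked all genes alike (Spearman correlation across genes of 0.9921 to 0.9946). In every group the replicate 1 library held 5125 to 8149 counts of the Y-linked gene Ddx3y and 5 to 12 of Xist, and the replicate 2 library 0 of Ddx3y and 59746 to 88819 of Xist. Values below are CPM after TMM scaling. Fold changes are on the log2 scale ± standard error (SE), from edgeR's quasi-likelihood test over all 15913 genes tested, with a call where p after Benjamini-Hochberg adjustment was below 0.05. The summed level of 10 eosinophil markers was 6381 and 5584 CPM in E1, and 7397 and 7168 CPM in CN. It was 4135 and 4176 CPM in E2, and 6643 and 6551 CPM in E0. Ccr3, Alox15 and Siglecf gave most of these sums. Of the 10 markers, 8 were called lower and 1 higher in E2 versus E0, with a median log2 fold change of -1.07. Epx, for example, had 15.2 and 7.87 CPM in E2, against 53.1 and 23.5 CPM in E0. In E1 versus CN, 2 were lower and 0 higher. In bulk RNA, fewer cells of a type and less RNA per cell cannot be told apart.

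IFN-γ with TNF-α was set against no cytokine to ask which of the antiviral genes those cytokines move. Of the 41 genes, 38 were higher in E1 than in CN, 0 were lower and 3 were not called. Over all genes tested, 9.19% were called higher and 8.08% lower. The median log2 fold change of the 41 was 2.90, against -0.01 for all genes. Of the 38, 26 rose at least 4-fold, 19 at least 8-fold and 10 at least 32-fold. Both E1 libraries lay above both CN libraries for 38 genes and below them for 1, Ifitm2, where 26.5% of all genes tested lay above and 27.5% below. With a replicate block within each experiment, 39 genes were higher, Trim25 among them (adjusted p = 4.20e-04), and 2 were lower, Ifitm1 (0.00996) and Ifitm2 (8.82e-04). At an unadjusted p below 0.05, edgeR put 1 gene lower, again Ifitm2, and with adjusted p DESeq2 called 1 lower and limma-voom 0. With library totals alone as the scale, 37 of the 41 were higher, and of all called genes 38.6% were higher, against 53.2% with TMM scaling.

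**Figure D1:**
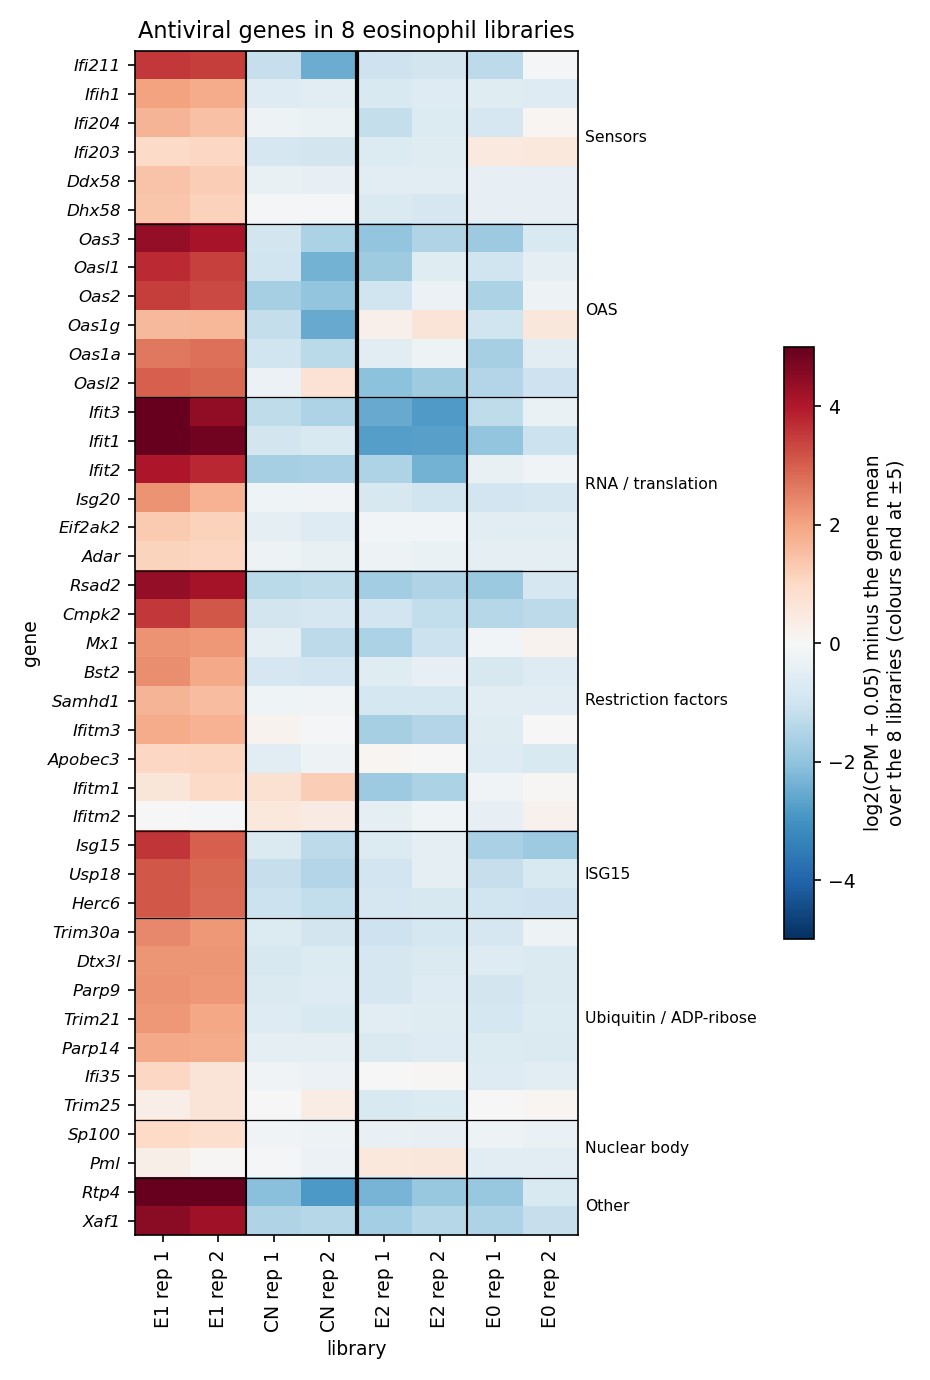
Level of each of the 41 antiviral genes (rows, grouped by role) in each of the 8 libraries (columns), as log2(CPM + 0.05) minus the mean of that gene over the 8 libraries. The E1 columns are red for most genes, while the E1 and CN columns of Ifitm1, Ifitm2, Trim25 and Pml are close in colour.

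Among the 6 sensors of foreign nucleic acid, all rose in E1. Ifi211, a member of the interferon-inducible p200 family, had 7.80 and 7.35 CPM in the E1 libraries, against 0.253 and 0.0721 CPM in the CN libraries. The E1 libraries were close to each other and far above both CN libraries, and the log2 fold change was 5.50 ± 0.52 (adjusted p = 1.75e-04). Of the 50-base stretches of its exons, 72.8% also occur in other genes, most of them in Ifi205, so its reads may be shared with such copies. Ifih1, which encodes the RNA sensor MDA5, had 77.9 and 70.2 CPM in E1 and 12.3 and 13.1 CPM in CN, a log2 fold change of 2.54 ± 0.10. Ddx58, which encodes RIG-I, rose by 1.72 on the log2 scale, and Dhx58, which encodes the related helicase LGP2, by 1.32. Ifi204, another p200 gene, rose by 1.90 and Ifi203 by 1.89. Both share exon sequence with relatives (20.0% and 12.2% of 50-base stretches), and Ifi203 and Ifi211 overlap Mndal on the same strand.

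The oligoadenylate synthetases make a small messenger that sets off the breakdown of RNA. All 6 genes of this family in the set rose in E1. Oas1a, Oas1g, Oas2 and Oas3 lie in 1 cluster (mm10 chr5:120730333-120907521), and Oasl1 and Oasl2 are neighbours on the same chromosome. Oas3 had 159 and 135 CPM in E1, against 4.00 and 2.55 CPM in CN (log2 fold change 5.49 ± 0.38, adjusted p = 2.95e-05). Oas2 had 28.1 and 25.7 CPM in E1 and 0.769 and 0.601 CPM in CN, and rose by 5.29. In neither gene did a CN library come near an E1 library. Oasl1, whose product is an oligoadenylate synthetase-like protein without synthetase activity, had 10.6 and 8.63 CPM in E1, against 0.358 and 0.108 CPM in CN, and rose by 5.33. Oasl2, the most abundant of the 6 also per kilobase of exon, had 784 and 741 CPM in E1 and 82.0 and 167 CPM in CN. Its CN libraries differed from each other more than its E1 libraries did, and its log2 fold change was 2.62 ± 0.31. Oas1a rose by 3.90 and Oas1g by 3.92. The last pair is uncertain gene by gene, because 57.6% of the 50-base stretches of Oas1a occur in Oas1g.

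RNA-binding and translation effectors followed, with 6 of 6 higher in E1. The IFIT proteins bind RNA that lacks the host cap marks and block its translation, and Ifit1, Ifit2 and Ifit3 lie in 1 cluster (chr19:34550694-34650009). Ifit3 had 13.9 and 7.58 CPM in E1, against 0.0949 and 0.0721 CPM in CN, a log2 fold change of 6.97 ± 0.49 (adjusted p = 3.23e-05). Ifit1 had 24.0 and 16.5 CPM in E1, against 0.253 and 0.288 CPM in CN (6.22 ± 0.32). Ifit2 had 8.58 and 7.12 CPM in E1, against 0.116 and 0.120 CPM in CN (6.04 ± 0.33). All 3 genes were near the detection limit in CN, and replicate 1 was the higher E1 library for each. Of the 50-base stretches of Ifit3, 51.2% occur in Ifit3b, so these reads cannot be told apart fully. Isg20, an exonuclease of single-stranded RNA, rose by 2.22, Eif2ak2, the kinase PKR that stops translation, by 1.80, and Adar, which edits adenosine to inosine in RNA, by 1.41.

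Restriction factors act on viral entry, nucleotide supply, replication or release. Here 7 of 9 rose and 2 were not called. Rsad2, which encodes viperin, an enzyme that makes a chain-terminating nucleotide, had 56.3 and 48.0 CPM in E1, against 1.00 and 1.08 CPM in CN (log2 fold change 5.65 ± 0.28, adjusted p = 4.51e-06). Cmpk2, its neighbour on chromosome 12 and a nucleotide kinase, had 69.4 and 51.5 CPM in E1, against 3.05 and 3.26 CPM in CN, and rose by 4.26. For both genes the libraries of the groups lay far apart. Mx1, a dynamin-like GTPase that is defective in many laboratory strains including C57BL/6, rose by 3.15, and Bst2, which encodes tetherin, a tether of budding virions, by 3.02. Samhd1 (ENSMUSG00000027639, chr2:157097533-157135265), which degrades deoxynucleotides, was the most abundant gene of the set, with 8906 and 7988 CPM in E1, against 2351 and 2470 CPM in CN. Its log2 fold change was 1.81 ± 0.10. Apobec3, a cytidine deaminase, rose by 1.44, its CN libraries being 99.5 and 123 CPM.

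The 3 interferon-induced transmembrane genes, which hinder fusion of viruses with cell membranes, were not called alike. Ifitm3 had 54.7 and 51.2 CPM in E1, against 17.2 and 14.7 CPM in CN, and rose by 1.73 ± 0.18. Ifitm1 had 316 and 403 CPM in E1, against 348 and 481 CPM in CN, and the groups overlapped (-0.21 ± 0.18, adjusted p = 0.497). Ifitm2 had 33.0 and 31.9 CPM in E1, against 47.7 and 43.5 CPM in CN. Both E1 libraries of Ifitm2 were the lower ones, yet its change of -0.49 ± 0.18 was not called (adjusted p = 0.111), while DESeq2 (0.0364) and a fit of the 4 libraries alone (0.0289) called it lower. Reads of Ifitm2 are uncertain, since 48.5% of its 50-base stretches occur in other genes, most often in the overlapping Gm45717.

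ISG15 is a ubiquitin-like protein that is attached to other proteins, Herc6 encodes the mouse ligase that attaches it and Usp18 the protease that removes it. All 3 genes rose in E1. Isg15 (ENSMUSG00000035692, chr4:156199424-156200818) had 60.0 and 40.0 CPM in E1, against 3.04 and 1.98 CPM in CN (log2 fold change 4.31 ± 0.26, adjusted p = 1.39e-05). Usp18, which also blocks the type I interferon receptor, had 78.7 and 66.6 CPM in E1, against 4.02 and 3.30 CPM in CN (4.31 ± 0.22). Herc6 rose by 4.15 ± 0.12. Replicate 1 was the higher of the E1 libraries for all 3.

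Ubiquitin and ADP-ribose enzymes and their partners came next, with 6 of 7 higher in E1. Trim30a, a tripartite-motif protein, had 156 and 132 CPM in E1, against 18.2 and 15.5 CPM in CN (log2 fold change 3.09 ± 0.19). Dtx3l and Parp9, which form a ligase complex, lie head to head on opposite strands with overlapping ends, and they rose by 2.95 and 2.90. Dtx3l had 343 and 347 CPM in E1, against 42.3 and 46.8 CPM in CN. The strand setting of the counting is not given in the sources used here, so reads in the overlap may count for either. Dhx58 with Dhx58os, Adar with Chrnb2, Apobec3 with Cbx7 and Rtp4 with Masp1 are further such pairs. Trim21, an intracellular antibody receptor, rose by 2.76, Parp14, an ADP-ribosyltransferase, by 2.34 ± 0.06, and Ifi35, a leucine-zipper protein, by 1.09. Trim25, the ligase known for activating RIG-I, had 195 and 244 CPM in E1, against 152 and 199 CPM in CN. The groups overlapped and it was not called (0.32 ± 0.14, adjusted p = 0.170). Without CN replicate 2 it was called higher (adjusted p = 0.0371).

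The nuclear body genes Sp100 and Pml were the smallest of the called changes along with Ifi35. Sp100 rose by 1.15 ± 0.08, with 432 and 384 CPM in E1, against 188 and 180 CPM in CN. Pml, the scaffold of these bodies, had 29.7 and 25.2 CPM in E1, against 22.6 and 19.6 CPM in CN, a log2 fold change of 0.38 ± 0.11 at the edge of the threshold (adjusted p = 0.0489). The Pml call was lost with library totals as the scale (0.110), with the 4 libraries alone (0.120), without CN replicate 2 (0.217) and without E1 replicate 1 (0.239). The 2 genes outside these roles were among the largest changes. Rtp4 (ENSMUSG00000033355, chr16:23520291-23614222), a chaperone of receptors, had 89.0 and 68.9 CPM in E1, against 0.264 and 0.132 CPM in CN, a log2 fold change of 8.61 ± 0.38 (adjusted p = 2.06e-06), the largest of the 41. Xaf1, a proapoptotic partner of XIAP, had 106 and 87.2 CPM in E1, against 1.61 and 1.69 CPM in CN (5.87 ± 0.18). Neither gene had a CN library above 2 CPM.

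**Figure D2:**
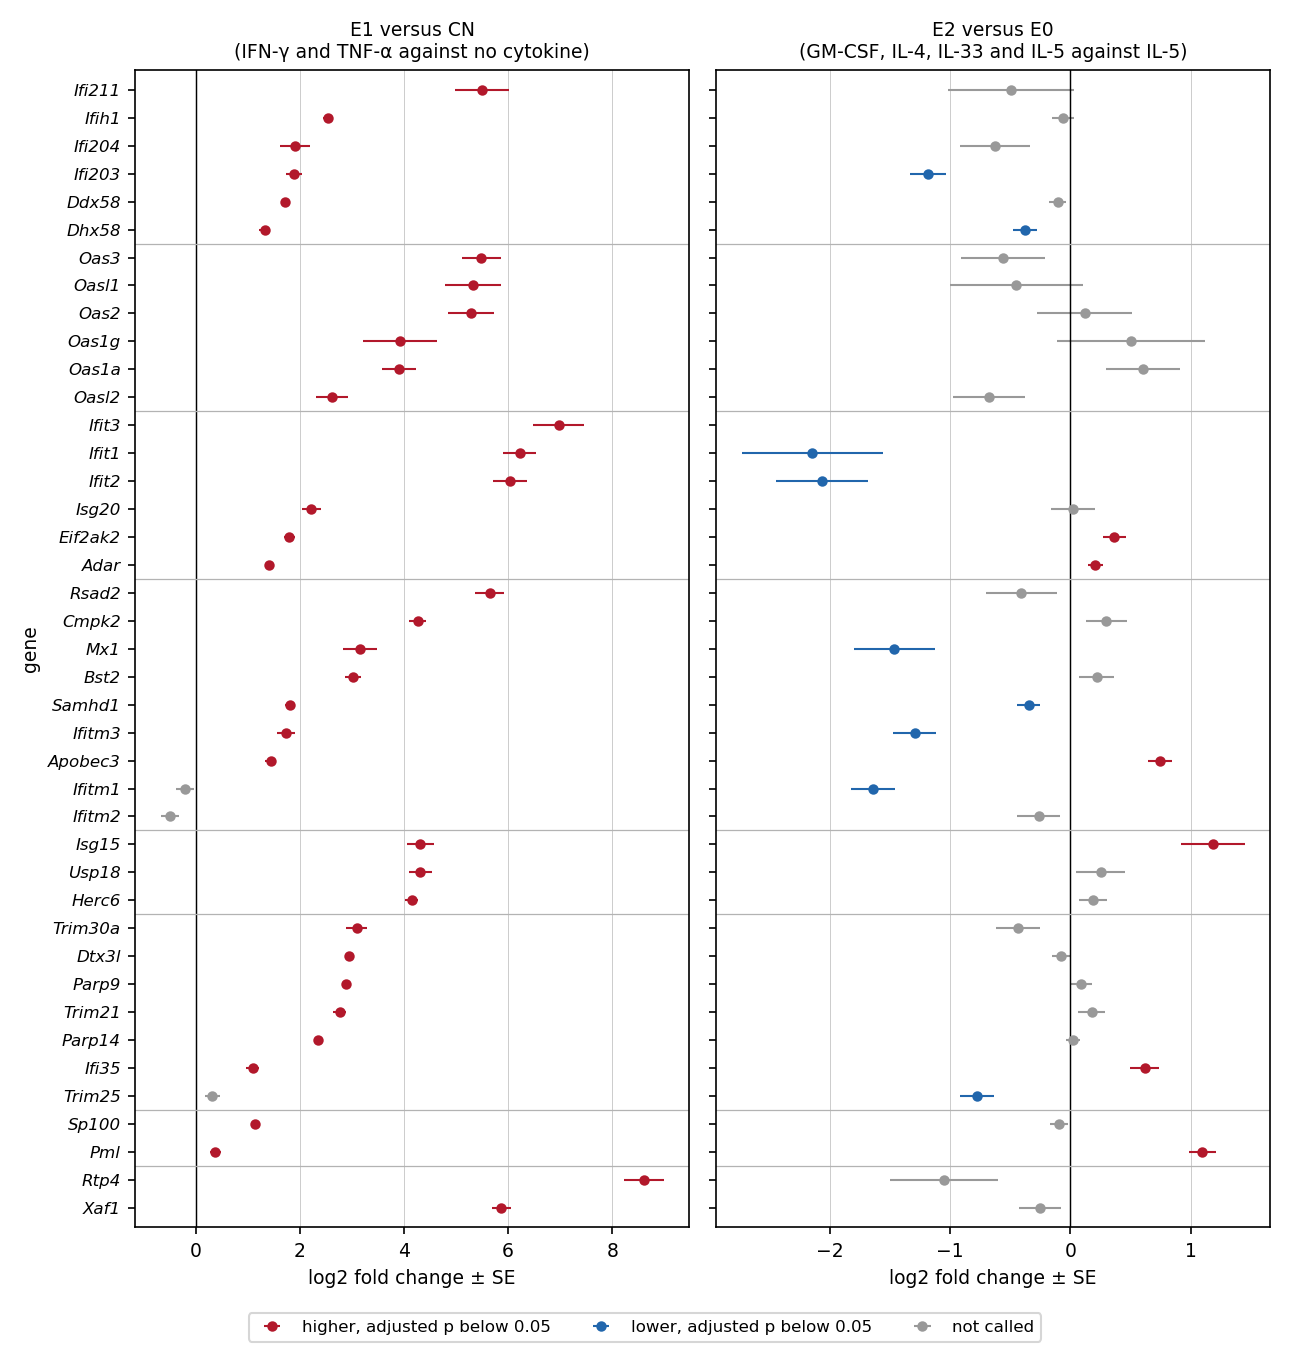
Log2 fold change ± SE of each antiviral gene in E1 versus CN (left) and in E2 versus E0 (right, on its own scale), grouped by role as in the map of levels. All changes on the left are above 0 except Ifitm1 and Ifitm2, while on the right 6 genes are called higher and 9 of the 10 called lower are drawn, Ifit3 being left out because E2 held 1 read of it.

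The second comparison asked what GM-CSF, IL-4 and IL-33 changed in eosinophils that received IL-5 in both groups. Of the 41 genes, 6 were higher in E2 than in E0, 10 were lower and 25 were not called. Over all genes tested, 17.0% were called higher and 18.5% lower, and of the antiviral genes 14.6% and 24.4%, so that the share called higher was near that of all genes. The median log2 fold change was -0.11, against -0.02 for all genes. Without E0 replicate 2 this median was 0.01 and without E0 replicate 1 it was -0.34. Both E2 libraries lay above both E0 libraries for 11 genes and below them for 14, smaller shares than the 35.9% and 37.2% of all genes tested. With a replicate block within each experiment, 9 genes were higher and 16 lower. Of the 16 calls, 8 were lost when some 1 library was left out, and the number of genes called lower then ran from 5 to 14.

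The genes called lower in E2 included all 3 IFIT genes at levels near the detection limit. Ifit2 had 0.129 and 0.0514 CPM in E2, against 0.354 and 0.418 CPM in E0 (log2 fold change -2.06 ± 0.38, adjusted p = 0.00390). Ifit1 had 0.0352 and 0.0386 CPM in E2, against 0.0966 and 0.227 CPM in E0 (-2.15 ± 0.59, adjusted p = 0.0209). With limma-voom Ifit1 (adjusted p = 0.211) and Ifit3 (0.0722) were not called. Both Ifit1 values in E2 rest on 3 reads each. Its call was lost without E0 replicate 2 (0.206), E2 replicate 1 (0.101) or E2 replicate 2 (0.0899). Ifit3 had 1 read over both E2 libraries, against 25 reads in E0, a ratio 27.9-fold lower with an exact 95% interval of 4.57-fold to 1147-fold that covers counting error only. The Ifit3 call was lost without E0 replicate 2 (0.0699) or E2 replicate 2 (0.0646).

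Restriction factors lower in E2 numbered 4 of 9 (44.4%), with 1 higher (11.1%). Of all genes tested, 18.5% were called lower and 17.0% higher. Ifitm1 had 58.3 and 68.0 CPM in E2, against 181 and 213 CPM in E0 (log2 fold change -1.64 ± 0.18, adjusted p = 3.51e-04). Ifitm3 had 4.74 and 5.41 CPM in E2, against 10.0 and 14.9 CPM in E0 (-1.30 ± 0.18, adjusted p = 0.00113). The E2 libraries of both genes lay together and below both E0 libraries, and these calls held with any 1 library left out. Ifitm2 had 23.6 and 28.6 CPM in E2, against 25.0 and 37.8 CPM in E0, with overlapping groups, and was not called. It was called lower when E0 replicate 1 was left out (adjusted p = 0.0335) and with the replicate block (0.0244). Mx1 had 0.317 and 0.463 CPM in E2, against 0.950 and 1.19 CPM in E0 (-1.47 ± 0.34). Its call was lost without E0 replicate 2 (0.0586) or E2 replicate 1 (0.0821). Samhd1 had 1483 and 1505 CPM in E2, against 1906 and 1897 CPM in E0, a log2 fold change of -0.35 ± 0.09 whose call was lost whichever of the 4 libraries was left out (0.0815 to 0.113). Apobec3 was the 1 factor called higher, with 157 and 143 CPM in E2, against 91.9 and 86.6 CPM in E0 (0.75 ± 0.10, adjusted p = 8.75e-04).

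Among the sensors, 2 were lower in E2 (33.3%, against 18.5% of all genes tested) and 4 not called. Ifi203 had 1.77 and 1.84 CPM in E2, against 4.04 and 4.18 CPM in E0 (log2 fold change -1.19 ± 0.15, adjusted p = 7.25e-04). Dhx58 fell by 0.38, with 19.3 and 17.8 CPM in E2, against 24.0 and 24.3 CPM in E0. That call was lost whichever of the 4 libraries was left out (0.0525 to 0.122). Trim25 had 90.1 and 96.5 CPM in E2, against 154 and 165 CPM in E0 (-0.78 ± 0.14, adjusted p = 0.00374), and it was the only one of the 7 ubiquitin and ADP-ribose genes called lower. Its 2 E2 libraries lay clear of both E0 libraries.

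For the 6 genes called higher in E2, log2 fold changes ran from 0.21 to 1.19. Isg15 had 3.07 and 3.68 CPM in E2, against 1.58 and 1.40 CPM in E0 (log2 fold change 1.19 ± 0.26, adjusted p = 0.00948). With limma-voom it was not called (adjusted p = 0.077). Its call was lost without E0 replicate 2 (0.0571) or E2 replicate 2 (0.0606). Pml had 35.0 and 35.5 CPM in E2, against 16.6 and 16.4 CPM in E0 (1.10 ± 0.11, adjusted p = 2.12e-04), with replicates nearly equal in both groups. Ifi35 had 69.9 and 74.0 CPM in E2, against 45.9 and 47.9 CPM in E0 (0.62 ± 0.12). The Pml, Ifi35 and Apobec3 calls held with any 1 library left out. Eif2ak2 (0.37 ± 0.10) and Adar (0.21 ± 0.06) were called by small margins. Eif2ak2 lost its call whichever of the 4 libraries was left out (0.0775 to 0.0886), as did Adar (0.0826 to 0.149).

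Among the oligoadenylate synthetases, 0 of 6 were called in E2 versus E0 by edgeR, at an adjusted or an unadjusted p below 0.05, and 0 by DESeq2 or limma-voom. With the replicate block 3 were called by edgeR, Oas1a higher (adjusted p = 0.0203) and Oas3 (0.0187) and Oasl2 (0.0240) lower, and Oasl2 was also called lower with the 4 libraries of the comparison alone (0.0213). Oasl2 had 24.0 and 29.4 CPM in E2, against 36.2 and 49.2 CPM in E0. The E0 libraries of the family differed from each other. Oas3 had 1.89 and 2.69 CPM in E2, against 2.14 and 4.52 CPM in E0, and Oas2 had 1.24 and 2.03 CPM in E2, against 0.821 and 2.14 CPM in E0. Oas1a had 2.78 and 3.43 CPM in E2, against 1.29 and 2.76 CPM in E0. E0 replicate 2 was the higher E0 library for Oas1a, Oas2, Oas3 and Oasl2 and for Rtp4 (0.306 and 0.728 CPM), Ifi211 (0.225 and 0.585 CPM), Ifi204 (4.02 and 7.70 CPM) and Rsad2 (0.708 and 1.47 CPM). Without E0 replicate 1, Oas3, Rtp4, Ifi204, Rsad2, Trim30a and Ifitm2 were called lower in E2 (adjusted p of 0.0139 to 0.0448). Without E0 replicate 2, Oas1a was called higher (0.00773). Marker levels also differed between the E0 libraries. The 11 monocyte and macrophage markers summed to 2892 CPM in replicate 1 and 3114 CPM in replicate 2, and 9 neutrophil markers to 1431 and 2328 CPM. Adgre1, most of the first sum, was lower in replicate 2 (2038.5 and 1990.7 CPM), as was Ly6c2 (53.0 and 37.5 CPM). The other monocyte and macrophage markers were higher there. Of the eosinophil markers, Epx (53.1 and 23.5 CPM), Prg2 (336 and 185 CPM) and Ear1 (125 and 59.7 CPM) were among those lower in replicate 2, while Siglecf and Alox15 were higher. The part of these marker differences in the spread of the antiviral genes was not tested.

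**Figure D3:**
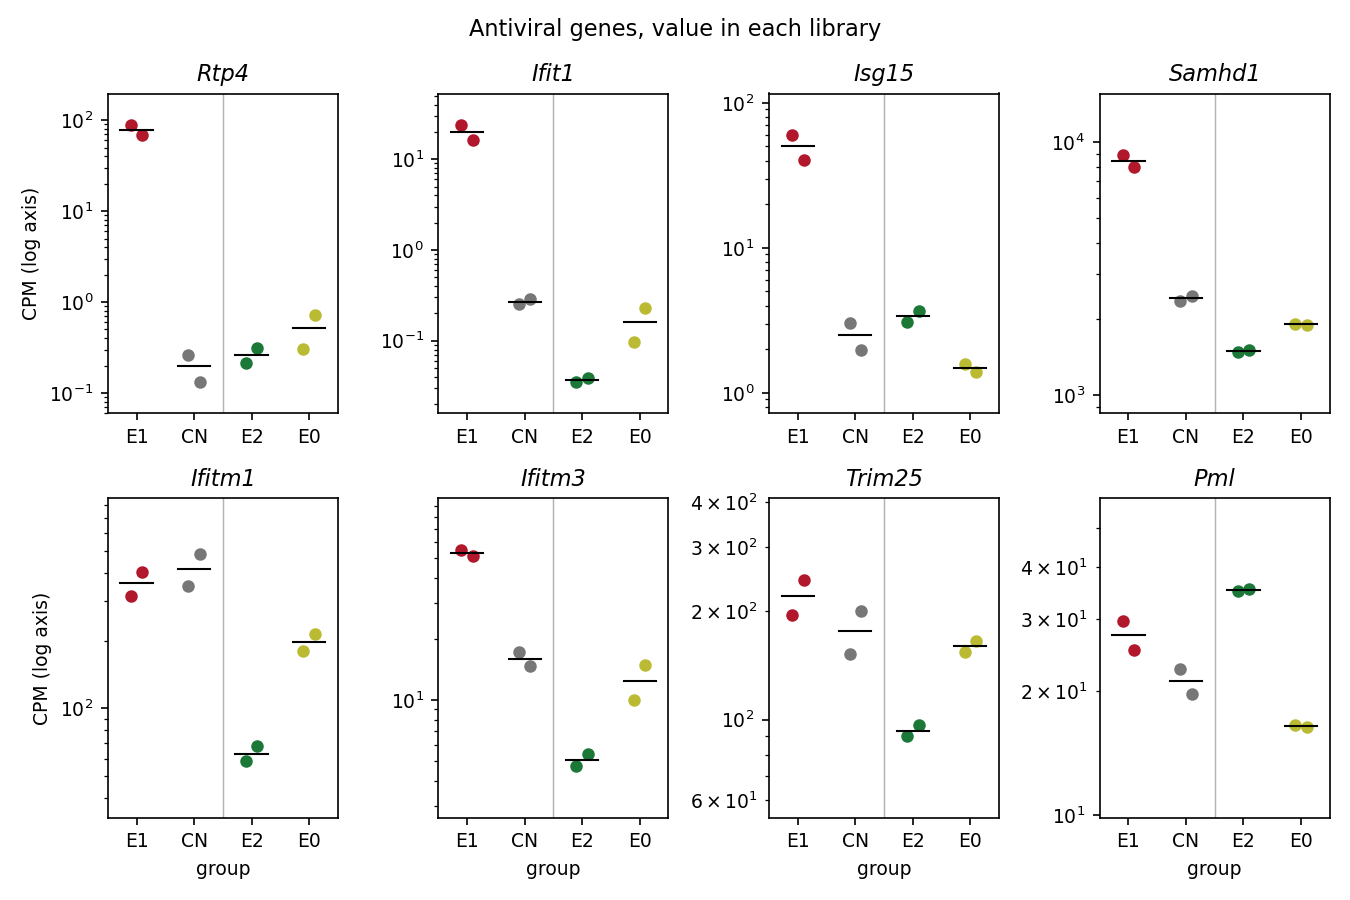
CPM on a log axis of 8 antiviral genes in each library, with points for the 2 replicates of a group (replicate 1 left) and a line for their mean. Rtp4, Ifit1, Isg15 and Samhd1 stand high in E1 alone, Ifitm1, Ifitm3 and Trim25 stand lowest in E2, and Pml stands highest in E2.

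Whether a gene's change differed between the comparisons was tested as the E1 response minus the E2 response, in the same fit. The comparisons share no library, but they were separate experiments, so cytokines and experiment cannot be told apart in this difference. The E1 response was the higher for 38 of the 41 genes, the lower for 1 and not called for 2, where 14.0% of all genes were called higher and 11.3% lower. The median difference was 3.04 on the log2 scale, against 0.02 for all genes. Pml was the 1 gene with the larger rise in E2 (-0.72 ± 0.15, adjusted p = 0.0106). The 2 not called were Ifitm2 (-0.23 ± 0.26, adjusted p = 0.580) and Ifi35 (0.48 ± 0.17, adjusted p = 0.0787). Ifi35 was called higher with DESeq2 (adjusted p = 0.0405) and with the replicate block in edgeR (0.00386). Oas1g, at 3.42 ± 0.95 (adjusted p = 0.0312), lost its call in 6 of 8 fits with 1 library left out: without CN replicate 2 (0.0663), E1 replicate 1 (0.0559), E1 replicate 2 (0.0545), E0 replicate 2 (0.163), E2 replicate 1 (0.107) or E2 replicate 2 (0.0754). Ifi35 was called higher without E1 replicate 2 (0.00519).

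By calls, 8 genes were higher in E1 and lower in E2, each against its own control: Dhx58, Ifi203, Ifit1, Ifit2, Ifit3, Mx1, Samhd1 and Ifitm3. These 8 were picked by opposite calls in the same fit, so a called difference was nearly fixed in advance and adds no support. That difference was 3.03 ± 0.26 in Ifitm3 (adjusted p = 1.03e-04) and 3.08 ± 0.22 in Ifi203 (adjusted p = 3.83e-05). The E2 calls of Dhx58, Ifit1, Ifit3, Mx1 and Samhd1 were lost when some library was left out, as given above. The 6 genes higher in both comparisons were Isg15, Pml, Apobec3, Ifi35, Eif2ak2 and Adar. Of these, Isg15 rose further in E1, by 3.13 ± 0.36 (adjusted p = 5.38e-04), and Apobec3 by 0.69 ± 0.14 (adjusted p = 0.00825). Ifitm1 and Trim25 were not called in E1 and were lower in E2. The other 24 genes higher in E1 were not called in E2, and Ifitm2 was called in neither.

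Levels differed widely within the set. The 41 genes summed to 14105 and 12871 CPM in E1, 3815 and 4189 CPM in CN, 2520 and 2574 CPM in E2, and 3048 and 3123 CPM in E0. Samhd1 made up most of each sum. Without it the sums were 5198 and 4883 CPM in E1, 1464 and 1720 CPM in CN, 1037 and 1068 CPM in E2, and 1142 and 1226 CPM in E0. Per kilobase of exon, the highest levels in E1 were those of Samhd1 (923 RPKM), Ifitm1 (329 RPKM), Oasl2 (120 RPKM) and Bst2 (119 RPKM), and the lowest was that of Oas1g (0.547 RPKM). In both E1 libraries 34 genes reached 10 CPM, against 21 in both CN libraries, and 9 genes were under 1 CPM in both CN libraries. Replicate 1 was the higher library for 34 of the 41 genes in E1, 25 in CN, 10 in E2 and 12 in E0.

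Genes with a low level in E0, libraries that the first comparison did not use, had the larger log2 fold changes in E1 versus CN. Across the 41 genes Spearman's rho was -0.837 and Pearson's r -0.806, and across all 15913 genes tested rho was 0.0592. The 2 values of rho cover unlike sets of genes. Of the 41 genes 38 were higher in E1, while most genes tested were not called. What sets the 2 values apart was not tested. Whether other risen genes follow the same pattern was not tested. These are descriptions across genes, which share their libraries and are not independent replicates, and the level is in CPM, not scaled by gene length. Samhd1, the most abundant gene in E0, changed by 1.81, and of the next 3 in level Ifitm1 changed by -0.21, Sp100 by 1.15 and Trim25 by 0.32. Rtp4 and the IFIT genes combined levels under 1 CPM in E0 with the largest changes.

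**Figure D4:**
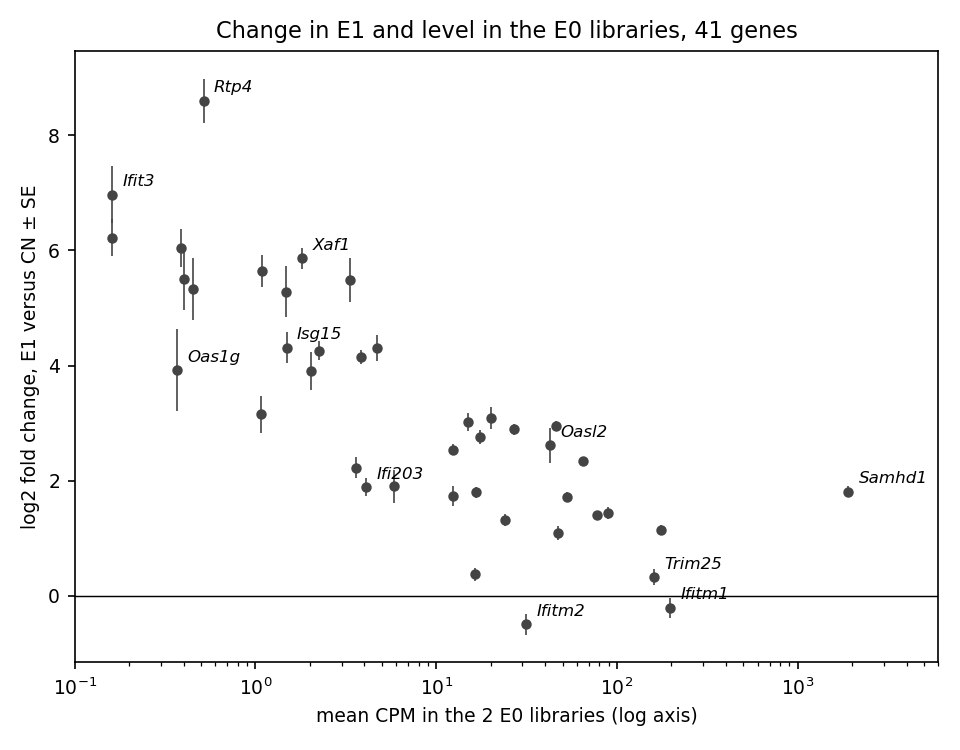
Log2 fold change ± SE in E1 versus CN of the 41 antiviral genes against their mean level in the 2 E0 libraries on a log axis, 1 point per gene. Changes above 5 belong to genes under 4 CPM in E0, and Ifitm1, Ifitm2 and Trim25 lie near or below 0.

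The genes that carry the interferon signal were taken from lists of receptors and kinases, transcription factors, feedback inhibitors and sensor adaptors. The list counts here and below stand beside the shares of all genes tested. These were 9.19% higher and 8.08% lower in E1, and 17.0% and 18.5% in E2. For the difference of the responses they were 14.0% and 11.3%. The 10 listed interferon ligand genes had no row in the count table, so they were not analysed and their levels are not known here. Transcription factors were higher in E1 for 10 of 11, Irf3 being not called. Irf1 had 1530 and 1325 CPM in E1, against 75.8 and 76.4 CPM in CN (log2 fold change 4.23 ± 0.10, adjusted p = 1.09e-07), and Batf2, a partner of IRF1, rose by 4.60. Irf7, which amplifies type I interferon, rose by 4.05. Of the parts of ISGF3, Irf9 rose by 2.06 and Stat2 by 1.71. In E2, 7 of the 11 were higher and 1, Irf2, lower (-0.41 ± 0.06). The largest rises there were those of Irf5 (1.16), Irf8 (0.74) and Irf7 (0.67). Irf9 rose by 0.53, with 52.7 and 58.8 CPM in E2, against 37.8 and 39.7 CPM in E0, and Irf1 by 0.41, and Stat2 was not called (-0.32, adjusted p = 0.0635).

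**Figure D5:**
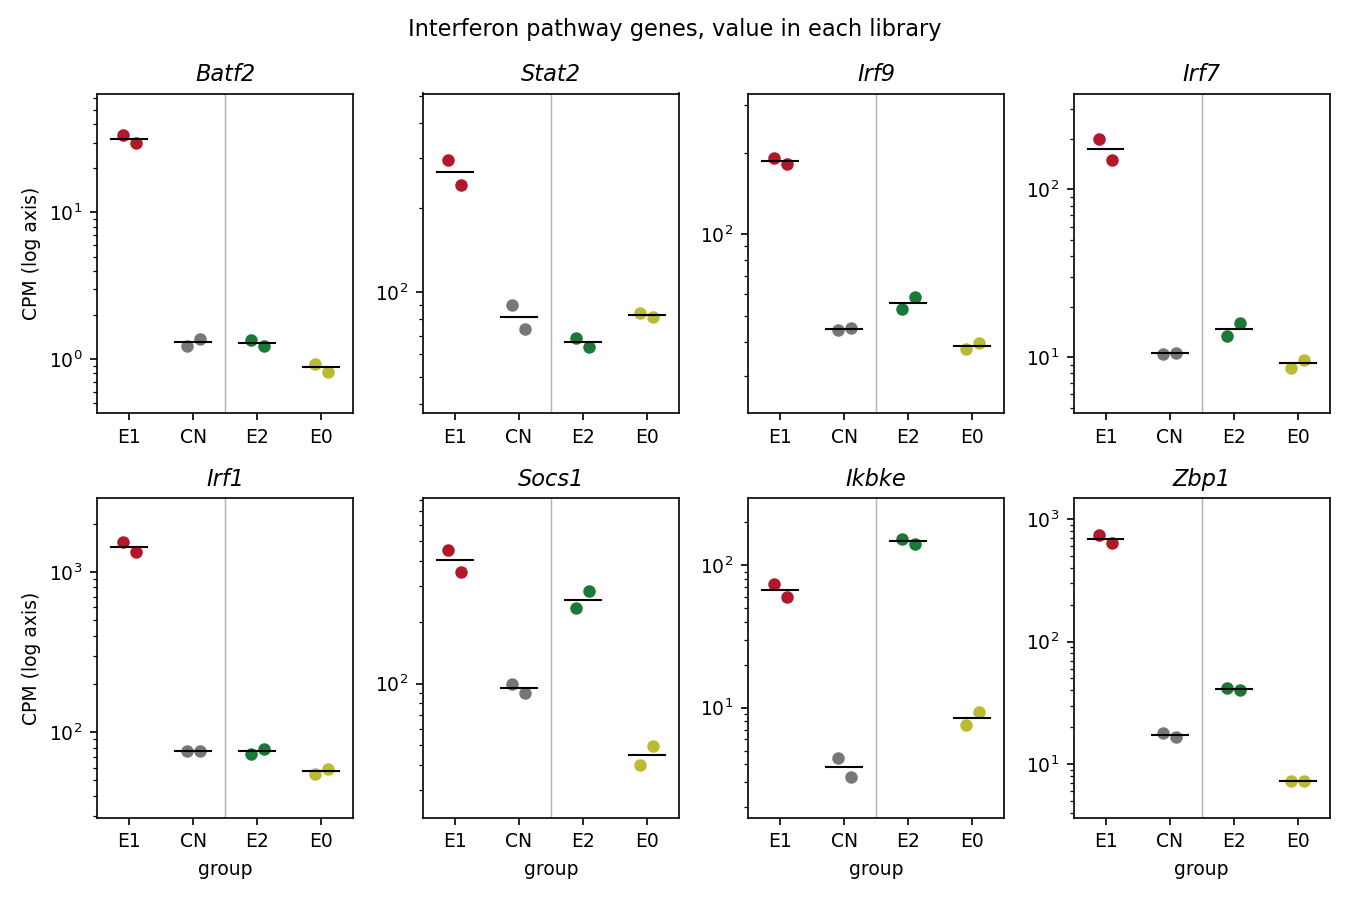
CPM on a log axis of 8 interferon pathway genes in each library, drawn as in the plot of antiviral genes by library. Batf2, Irf1 and Irf7 stand apart in E1, Socs1 stands above both controls in E1 and E2, and Ikbke stands highest in E2.

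Of 9 receptors and kinases, 2 were higher in E1, Ifnar2 (1.01 ± 0.07) and Tyk2 (0.50 ± 0.07), and 1 was lower, the type III receptor gene Ifnlr1 (-1.16 ± 0.32, adjusted p = 0.0429). In E2, Ifngr2 (0.57), Tyk2 (0.27) and Ifnar1 (0.21) were higher, and Jak1 (-0.46) and Ifngr1 (-0.30) were lower. Among 8 feedback inhibitors, the E1 response was lower than the E2 response for 4 and higher for 1. Socs1, an inhibitor of Janus kinases, had 450 and 353 CPM in E1, against 99.2 and 90.2 CPM in CN (2.08 ± 0.16), and 234 and 283 CPM in E2, against 39.6 and 49.5 CPM in E0 (2.54 ± 0.16). Cish, an inhibitor induced by STAT5, had 226 and 215 CPM in E1, against 418 and 401 CPM in CN (-0.89 ± 0.07), and 842 and 838 CPM in E2, against 216 and 216 CPM in E0 (1.96 ± 0.07). Socs3 fell by 0.54 in E1 and rose by 1.49 in E2. In all, 4 of the 8 genes were higher and 2 lower in E1, the others higher being Usp18, Tnfaip3 (0.65) and Ptpn2 (0.47), and in E2 6 were higher and 1, Pias1, lower (-0.24).

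Among 12 sensor adaptors and signalling genes, 4 were higher in E1 and 8 not called. Zbp1, a sensor of Z-form nucleic acid that triggers cell death, had 741 and 642 CPM in E1, against 18.0 and 16.5 CPM in CN (log2 fold change 5.33 ± 0.10). Ikbke, a kinase that phosphorylates IRF3 and IRF7, had 73.4 and 59.4 CPM in E1, against 4.44 and 3.27 CPM in CN (4.10 ± 0.18). Sting1, the DNA-sensing adaptor, rose by 1.10 and Tbk1, a kinase related to Ikbke, by 0.64. In E2, 5 were higher (41.7%) and 2 lower (16.7%), the latter share being near the 18.5% of all genes tested. Ikbke had 152 and 142 CPM in E2, against 7.56 and 9.31 CPM in E0 (4.12 ± 0.18), and Zbp1 rose by 2.49. Tlr9, a receptor for DNA, rose by 3.25, whereas Tlr7, a receptor for RNA, fell by 2.18 and Sting1 by 0.55.

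A further 40 interferon-stimulated genes, none of them in the set, were listed and 37 were tested. In E1, 33 were higher and 4 not called, with a median log2 fold change of 2.58. The largest rises were those of the guanylate-binding protein gene Gbp2 (10.44), Ifit3b (6.77) and Ifit1bl1 (6.45), of which Ifit3b held few reads in CN and shares sequence with Ifit3. In E2, 6 were higher (16.2%) and 14 lower (37.8%), with a median log2 fold change of -0.33. The share called higher was near the 17.0% of all genes tested, while 18.5% of all genes were called lower. Ube2l6, the enzyme that conjugates ISG15 together with its ligase, rose 2.83-fold, Ifi205 2.82-fold and Gbp2 2.70-fold. On the log2 scale Ifi207 fell by 2.60, Slfn5 by 1.52 and Ifi27l2a by 1.32. Of these, Ifi205 and Ifi207 belong to the p200 family, whose members share exon sequence.

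Markers of other cells were measured beside these changes. The 11 monocyte and macrophage markers summed to 7384 and 6838 CPM in E1, against 3283 and 2882 CPM in CN, with 3 higher and 3 lower. Ly6c2 alone gave 4214 and 3784 CPM of the sums in E1, against 92.9 and 105 CPM in CN. Mrc1 was at 0 in E1 replicate 2. In E2 the same list summed to 3833 and 3694 CPM, against 2892 and 3114 CPM in E0, with 3 higher and 8 lower. The 8 dendritic cell markers summed to 14.7 and 15.4 CPM in E1, 10.8 and 10.4 CPM in CN, 22.8 and 24.1 CPM in E2, and 16.0 and 19.3 CPM in E0. Neutrophil markers were lower in E1 for 5 of 9 and higher for 1, Ly6g. It had 64.3 and 62.2 CPM in E1, against 6.60 and 7.05 CPM in CN. In E2, 3 of the neutrophil markers were lower and 0 higher. T cell markers summed to at most 6.26 CPM in any library, NK cell markers to at most 50.4 CPM, and mast cell and basophil markers to at most 28.6 CPM. The 7 B cell markers summed to 262 and 222 CPM in E1, 250.4 and 242 CPM in CN, 180 and 146 CPM in E2, and 274 and 262 CPM in E0. Ighm, the immunoglobulin heavy chain gene, gave most of these sums and was lower in E2 (log2 fold change -1.08, adjusted p = 4.50e-04), while 3 of the 7 were higher there. The part of these cells in the antiviral gene levels was not tested.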

How the data were processed

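Raw read counts per Ensembl gene were deposited by the authors for 8 libraries, with no normalization, and per the submitters' processing notes reads were aligned to mm10 with STAR and counted with featureCounts. The sources used here give no versions, annotation, strand setting or rule for reads that map to several places. Per the labels' protocols, libraries were TruSeq Stranded mRNA. The table had 1 unnamed row equal to the column totals (100% of the counts of named genes), which was left out.

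Counts were fitted in R 4.3.3 with edgeR 4.0.16: filterByExpr (4 genes removed, 15913 tested), TMM scaling, a model of group means on all 8 libraries, which leaves 4 residual degrees of freedom, the two-sided quasi-likelihood F test and Benjamini-Hochberg adjustment. SE is the unshrunken log2 fold change divided by the root of F. Contrasts were E1 against CN, E2 against E0, and the first minus the second. Alternatives were library totals as scale, DESeq2 1.42.0 size factors, the DESeq2 Wald test, limma-voom (limma 3.58.1), no filter, a mean of at least 1 CPM, the 4 libraries of a contrast alone, a replicate block and each library left out. The fit was tested on simulated counts. Exon length, overlaps and shared 50-base stretches were read from GENCODE M21 (mm10), which need not be the annotation behind the counts.

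The members and lists were chosen with earlier results of these data known. Every gene of the set found in the table is named. Values in the E1 and CN libraries are given for the largest changes of each role group. Genes not called in E1 versus CN have values in all libraries. For the largest called changes in E2 versus E0 and genes whose calls differed in sign, E2 and E0 values are given, for Ifit3 as reads. Their E1 and CN values are given for some only. From the pathway lists, the 3 largest called changes each way, and the regulators Stat2, Irf9, Irf7 and Irf1, are named, and some items are not reported here. Ly6c2, Ly6g, Adgre1, Ighm, Mrc1, Irf3 and the eosinophil markers were named after their values were seen. Protein identities of paralogs were not computed.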

Additional observations from a re-analysis of the deposited data

How the results depend on the processing

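In E1 versus CN, 37 of the 41 antiviral genes kept their call, or lack of one, under every alternative run, the exceptions being Pml, Ifitm1, Ifitm2 and Trim25. For E2 versus E0 this number was 23 and for the difference of the responses 39, and no called gene changed direction in any of the 3. The number of genes lower in E1 was 0 as reported, 1 with DESeq2 and 1 when only E1 and CN were fitted. With each library left out in turn, the genes lower in E2 numbered 5 to 14 and the genes higher 3 to 4. The median log2 fold change in E2 versus E0 ran from -0.34 to 0.01 (-0.3447 without E0 replicate 1 and, with its sign turned, 0.0073 without E0 replicate 2), and the median difference of the responses from 2.72 to 3.10. The cause was not tested.

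The labels tie the replicate numbers to no animal or batch, but in every group replicate 1 carried Y-linked reads and replicate 2 Xist, so the number goes with sex. Whether groups share animals is not given. The differences between replicates 1 and 2 correlated across genes at 0.47 for E1 with CN and 0.589 for E2 with E0, against 0.131 to 0.312 between groups of different experiments. With a replicate block within each experiment, 2 antiviral genes were lower in E1 (Ifitm1 and Ifitm2), Trim25 was higher, and in E2 16 were lower and 9 higher, with Bst2, Oas1a and Usp18 gained as higher and Ifi204, Ifitm2, Oas3, Oasl2, Rtp4 and Trim30a as lower. Over all genes the block raised the calls to 2786 higher and 2734 lower in E1 versus CN, against 1463 and 1286 without it, and to 4145 and 4369 in E2 versus E0, against 2711 and 2944. Outside E1, Ifit1, Ifit2, Ifit3, Rtp4, Oas1g, Ifi211 and Oasl1 were near the detection limit, and their values there rest on few reads. In CN, Oas1g had 13 and 2 reads, Ifi211 24 and 6, and Oasl1 34 and 9. With each library left out in turn, the log2 fold change in E1 versus CN ran from 3.21 to 5.66 for Oas1g. It ran from 4.90 to 6.70 for Ifi211 and from 4.74 to 6.47 for Oasl1.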
